A study of Drosophila melanogaster with 15 samples.

Results

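The 5 embryo samples that carry the replicate letter B were compared with the 5 that carry the letter A, 10 of the 15 samples in the series. Members were chosen by the letter in the sample title alone. Each set held a control sample that was not irradiated and samples given 500 µGy of gamma rays at 22.4 mGy per hour, 5, 30, 60 or 90 min before freezing. All 10 came from the w[1118] strain, whose eyes are white, and were frozen at an age of 3 to 4 h. Egg laying lasted 1 h per the labels' protocols, embryos from 6 bottles were pooled and kept for 3 h at 23 °C, and RNA of the pool went onto a single array. A B sample was set against the A sample of the same treatment, which gives 5 pairs. The control, 5 and 30 min pairs are described apart from the 60 and 90 min pairs. This split was proposed with the levels of these arrays known. The labels call the letters biological replicates and say nothing of which samples were collected together. A set may therefore be a single collection, and the p-values below measure only the spread between pairs.

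Background to the comparison is the handover from mother to embryo. A Drosophila egg is loaded with RNA and protein made in the ovary, and the embryo's own genome is nearly silent during the first nuclear divisions. A first wave of short zygotic genes, many of them used to form cell membranes around the blastoderm nuclei, is then switched on, maternal messages are cleared, and gap, pair-rule and segment polarity genes divide the body axis in turn. Pole cells, the germline precursors, keep part of the maternal RNA longer than the rest of the embryo. These programmes follow each other within hours. In pooled tissue, fewer cells of a type and less RNA per cell cannot be told apart.

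Some arrays stood apart before any gene was considered. Over the 11261 probe sets in the brighter 60% of the array, the median correlation of the 90 min B array was 0.850 with the A arrays, 0.877 with the other B arrays and 0.944 with the 5 C arrays of the series. Control B, in contrast, had a median correlation of 0.953 with the A arrays and 0.877 with the C arrays. The B minus A differences of the 60 and 90 min pairs correlated across these probe sets at r = 0.617, and all other combinations of pairs at 0.095 to 0.345. Genes are not independent replicates, so no test goes with these values. The hybridization spike-in controls averaged 10.81 to 10.92 on the log2 scale in set A, 10.72 to 11.09 in the control, 5 and 30 min arrays of set B, and 11.54 and 11.52 in its 60 and 90 min arrays. On the C arrays these controls averaged 11.36 to 11.74. The median intensity of the A and B arrays was 29.5 to 44.3, highest in 30 min B.

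**Figure D1:**
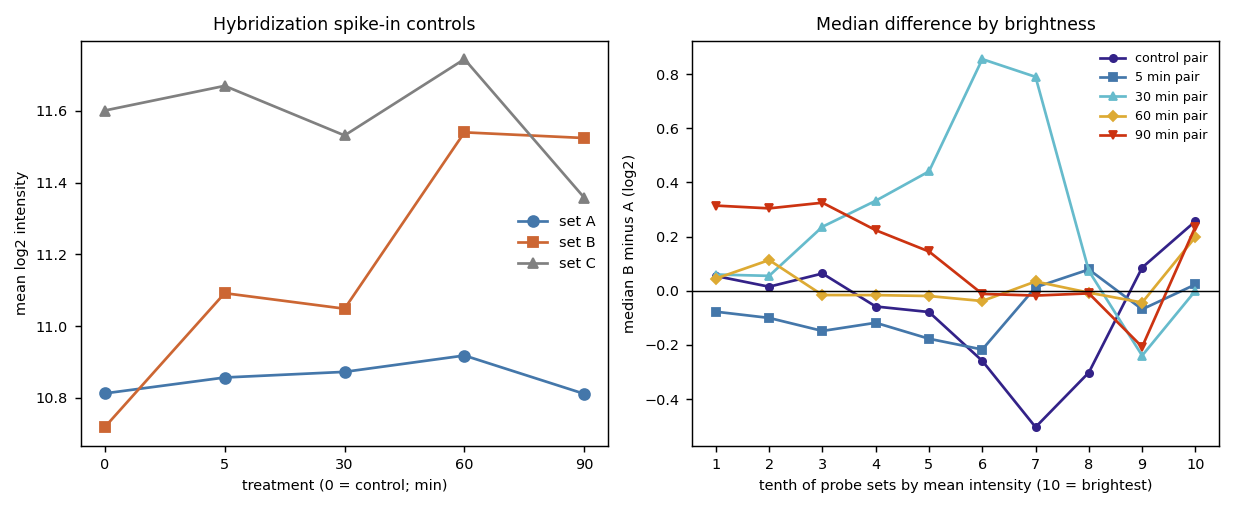
Left, mean log2 intensity of the hybridization spike-in controls on each array of sets A, B and C by treatment. Right, median B minus A difference of each pair in 10 equal bins of the probe sets ordered by mean intensity. The 60 and 90 min B arrays lie at 11.54 and 11.52, above all A arrays and within the range of the C arrays, 11.36 to 11.74. On the right, the 30 min pair reaches 0.86 in bin 6, where the control pair is at -0.26.

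The sets differed by more than the treatments within set A did, and by about as much as the treatments within set B. The median absolute B minus A difference of the brighter probe sets was 0.46, 0.53, 0.75, 0.56 and 0.94 on the log2 scale in the control, 5, 30, 60 and 90 min pairs. Within set A, this measure between an irradiated array and the control was 0.30 to 0.45. Within set B it was 0.45 to 0.93, the last for 90 min. The 90 min pair held the most probe sets that were at least 1 unit lower in B, 27.3%, and the 30 min pair the most that were at least 1 unit higher, 27.7%. In the control pair these shares were 17.9% lower and 6.35% higher, and in the 90 min pair 20.0% were at least 1 unit higher.

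In the control, 5 and 30 min pairs, RNA loaded by the mother was lower in set B, and patterning genes of the gastrulating embryo were mostly higher. Of 18769 probe sets, 39 passed (0.208%), with 22 higher in B (0.117%) and 17 lower (0.0906%), at an adjusted p under 0.05 in limma with Benjamini-Hochberg adjustment over all of them. The unadjusted p was under 0.05 for 2180, and the smallest adjusted p was 0.0384. All 39 lay on the same side in all 3 pairs, which selection by the mean of these pairs favours. The median size of the difference was 1.56 among the higher and 2.28 among the lower probe sets, on the log2(intensity + 1) scale used throughout. Values with ± are standard errors over these 3 pairs, from a fit in which the 5 pairs share their spread. The calls sit close to the threshold: 0 passed in limma without any one of the 5, 30, 60 and 90 min pairs, with a pseudocount of 16 or without an intensity trend in the spread (1417 to 2169 at an unadjusted p under 0.05), and 9 passed among the brighter probe sets alone. Without the control pair 198 passed, and 272 passed where all 15 arrays shared the spread, of which 38 were among these 39.

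Most maternal transcripts were lower in B. The maternal list had 40 measured genes, of which 38 were lower in B and 5 passed: otu, orb, osk, Hsp26 and Hsp27. The list's median difference was -1.08, against 0.03 over all 11982 genes with a single symbol, of which 15 passed as higher and 13 as lower. Set C also lay below set A in this list. Its median C minus A difference was -0.62, -0.68 and -1.15 for control, 5 and 30 min. The intensities of otu, a deubiquitinase gene needed in oogenesis, were 2376, 645 and 1551 in A and 473, 131 and 59.8 in B, in the order control, 5 and 30 min. All B arrays were below all A arrays, by -3.10 ± 0.47 on the log2 scale (adjusted p = 0.0471). The transcript of orb, a CPEB-type regulator of translation in the oocyte, measured 1732, 194 and 769.8 in A and 164, 54.7 and 49.4 in B. Every A value exceeded every B value, although 5 min A was close to control B, and the difference was -3.05 ± 0.48 (adjusted p = 0.0473). For osk, the organizer of germ plasm, the A arrays gave 5428, 1811 and 3408 and the B arrays 1511, 774 and 708, a difference of -1.78 ± 0.27 (adjusted p = 0.0471). In all 3 genes control A was the highest array of the 6. Genes that passed were selected for a difference, and the share of all probe sets without overlap was not counted. Non-overlap of arrays, here and below, is therefore a description.

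The small heat shock genes Hsp26 and Hsp27 are transcribed in the ovary without heat, and belong to both the maternal and the chaperone list. Hsp26 stood at 7757, 4521 and 1760 in A and 803, 647 and 442 in B (difference -2.69 ± 0.38, adjusted p = 0.0439). Hsp27 stood at 8872, 4241 and 7011 in A and 2797, 1179 and 780.1 in B (difference -2.23 ± 0.29, adjusted p = 0.0384). The 2 groups of arrays did not overlap in either gene. Of the 11 measured chaperone genes 10 were lower in B, with a median of -0.82, but no others than these 2 passed. The heat-inducible Hsp68 was high on a single array, 5 min A, at 2734, against 252 in control A and 91.0 in 5 min B.

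Other maternal genes had large differences that did not pass. The anterior RNA factor exu measured 2314, 288 and 468 in A and 139, 100.3 and 79.2 in B (-2.70 ± 0.60, adjusted p = 0.117). The maternal alpha-tubulin gene alphaTub67C measured 3482, 387 and 811 in A and 343, 204 and 107 in B (-2.39 ± 0.59, adjusted p = 0.14). Control A was several times as bright as the other A arrays in both, and no B array reached the lowest A array. The anterior determinant bcd was flatter, with 4178, 4021 and 5300 in A and 3491, 2123 and 2027 in B (-0.86 ± 0.23, adjusted p = 0.182), and its arrays did not overlap. The mitotic cyclin CycB, at -0.09 ± 0.13, and the spindle motor gene ncd, at -0.04 ± 0.18, stood near 0. The genes nos and Hsp83 were not analysed here, because no probe set names them alone.

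Germ plasm genes lay in the same direction. All 11 were lower in B, with a median of -0.57, and 2 passed, osk and zpg; osk, gcl and CycB are also in the maternal list. The germline gap junction gene zpg measured 2924, 1433 and 2270 in A and 989, 352 and 237 in B, without overlap (-2.28 ± 0.34, adjusted p = 0.0439). The pole cell gene gcl, at -1.21 ± 0.24, and the germline Argonaute gene piwi, at -1.26 ± 0.36, did not pass (adjusted p = 0.0783 and 0.199). Without the 30 min pair the list's median was -0.33, and that of the maternal list -0.63. For germ plasm genes the median C minus A difference was -1.57, -1.67 and -2.01 for control, 5 and 30 min.

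Other genes that passed as lower were outside these lists. Jabba, which holds histones on lipid droplets of the early embryo, measured 7705, 1695 and 4219 in A and 967, 527 and 205 in B (-3.01 ± 0.44). Fs(2)Ket, the importin beta gene, measured 6162, 2220 and 4548 in A and 2168, 763 and 868 in B (-1.81 ± 0.25). The peroxidase-like Pxt of the ovarian follicle fell by 2.25 ± 0.35 and the ABC transporter gene E23 by 2.96 ± 0.43. In these 4 genes the adjusted p lay between 0.0439 and 0.0471, and no B array reached the lowest A array. Among the genes with a symbol that passed, CG14569 had the largest difference, -4.90 ± 0.63, with 387, 148 and 214 in A and 13.8, 1.41 and 12.2 in B. Its B values are close to the background, and with a pseudocount of 16 in place of 1 the difference was -3.34. The remaining gene named by rule, CG3408, differed by -1.97 ± 0.30. The list of ovary, eggshell and yolk genes did not lie in the direction of the maternal list: 13 of 17 were higher in B, with a median of 0.52 and 0 calls (3 at an unadjusted p under 0.05). Its median was 1.13 in the control pair and -0.04 without that pair. Only 8 of the 17 were among the brighter probe sets, where the median was 0.09. With a pseudocount of 16 the median was 0.21, so its size depends on dim probe sets.

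**Figure D2:**
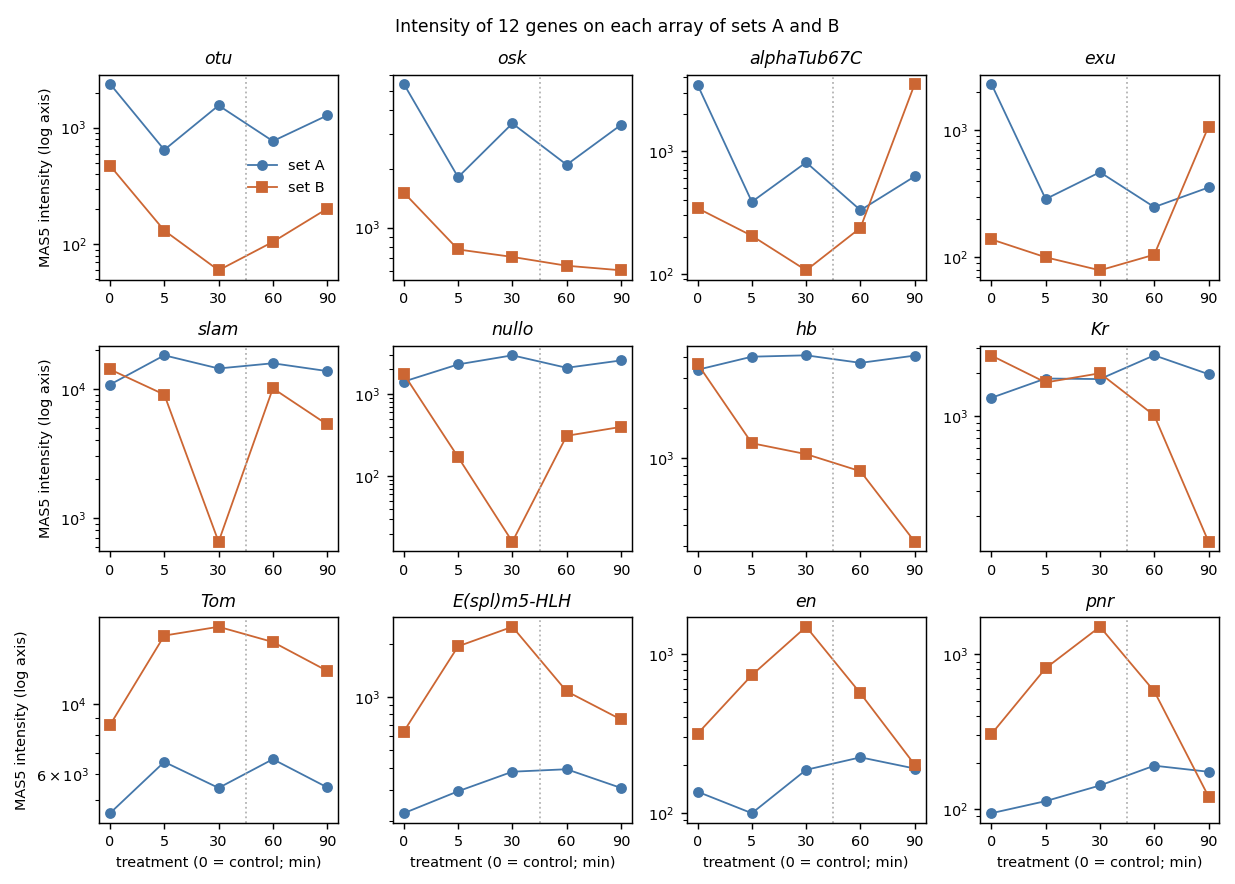
MAS5 intensity (log axes, which differ between panels) of 12 genes on each array of set A (circles) and set B (squares) by treatment, with a dotted line between the control, 5 and 30 min and the 60 and 90 min arrays. The B array of every treatment lies below its A array in otu and osk and above it in Tom and E(spl)m5-HLH, while alphaTub67C and exu are high in control A and 90 min B.

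Among zygotic genes, the Bearded and Enhancer of split families were higher in B. Both families are targets of Notch signalling and, for the Bearded family, of mesoderm patterning at gastrulation. All 14 measured members were above A on average, with a median of 1.47, and 3 passed. E(spl)m5-HLH, a bHLH repressor, measured 220.5, 294 and 379 in A and 639.8, 1944 and 2509 in B (2.33 ± 0.33, adjusted p = 0.0439). Tom, a Bearded family inhibitor of Neuralized, measured 4527, 6567 and 5438 in A and 8579, 16416 and 17498 in B (1.31 ± 0.17, adjusted p = 0.0384). Its relative BobA measured 4575, 6712 and 5045 in A and 7632, 16616 and 16436 in B (1.25 ± 0.20, adjusted p = 0.0499). The lowest B array of each was the control, and it was still above the highest A array. E(spl)mdelta-HLH, at 2.75 ± 0.47, and E(spl)malpha-BFM, at 2.43 ± 0.43, had larger differences that did not pass.

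Segment polarity genes, the last tier of the segmentation cascade, were all 12 above A, with a median of 1.71, but 0 passed in limma although 10 had an unadjusted p under 0.05. The homeobox gene en, which marks posterior compartments, measured 136, 99.9 and 187 in A and 316, 738 and 1486 in B (2.35 ± 0.46, adjusted p = 0.0783). The paired-box gene gsb measured 91.2, 56.2 and 198 in A and 253, 958 and 1425 in B (2.79 ± 0.53, adjusted p = 0.0741). The signal gene hh measured 64.2, 28.5 and 76.7 in A and 115, 448 and 529 in B (2.51 ± 0.60, adjusted p = 0.131). In all 3 the B arrays exceeded every A array, and 30 min B was the brightest. The 4 measured Hox genes lay between 1.29 and 2.22, with a median of 1.63, and 0 passed; 3 of them had an unadjusted p under 0.05. Ubx and wg were not analysed here.

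Tissue genes of the germ layers shared this direction. Of 12 mesoderm genes 12 were higher and 1 passed, Traf4, an adaptor at cell junctions of the gastrula, with 1245, 1365 and 1540 in A and 2874, 5029 and 5988 in B (1.68 ± 0.23). The neuroectoderm list had 14 of 15 genes higher, with a median of 1.57, and 1 passed, the neuroblast adaptor gene mira (1629, 2221 and 1829 in A, 3382, 5821 and 4886 in B, 1.29 ± 0.20). In the dorsal ectoderm list 15 of 21 were higher, with a median of 1.33, and 1 passed, the cell adhesion gene Ama (3215, 4603 and 3940 in A, 7206, 13934 and 14809 in B, 1.56 ± 0.18). The GATA factor gene pnr of the dorsal ectoderm measured 94.4, 113 and 143 in A and 306, 816 and 1510 in B and did not pass (2.64 ± 0.51, adjusted p = 0.075). Endoderm and gut genes were higher in 11 of 13, with a median of 1.35 and none past the threshold; 7 had an unadjusted p under 0.05.

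Outside the lists, rib, a BTB-domain regulator of tube formation, measured 1246, 1221 and 1846 in A and 3754, 4955 and 5340 in B (1.71 ± 0.21, adjusted p = 0.0384). The BMP ligand gene gbb measured 586, 699.5 and 721 in A and 1221, 3056 and 3771 in B (1.86 ± 0.29, adjusted p = 0.0473). The nuclear protein gene dan measured 1543, 1525 and 1728 in A and 2923, 7096 and 9071 in B (1.84 ± 0.28, adjusted p = 0.0458). None of these groups of arrays overlapped. The odorant-binding protein gene Obp99a had the largest increase of the genes with a symbol that passed, 2.35 ± 0.35, and the zinc finger gene noc rose by 1.33 ± 0.21. Of the 2 other genes named by rule, hll rose by 1.62 ± 0.26 and CG15628 by 1.53 ± 0.23.

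The earliest zygotic genes did not go with the later ones. In the list of cellularization and first-wave genes 12 of 18 were lower in B, with a median of -0.76, and 0 passed, while 8 had an unadjusted p under 0.05. The pairs disagreed: the list's median was 0.72 in the control pair, -0.62 in the 5 min pair and -1.80 in the 30 min pair, and without the 30 min pair the list's median was -0.06. The junction gene nullo measured 1413, 2287 and 2950 in A and 1745, 170.5 and 15.9 in B (-3.63 ± 1.04, adjusted p = 0.204). The membrane growth gene slam measured 10764, 18135 and 14345 in A and 14113, 9007 and 654 in B (-1.69 ± 0.67, adjusted p = 0.367). The insulator component gene Elba3 measured 3548, 8101 and 7213 in A and 7127, 2295 and 106 in B. In each, control B lay within the range of the A arrays and 30 min B was the lowest of the 10 arrays. Gap genes were mixed, 8 of 13 higher with a median of 0.35, and hb measured 3370, 4031 and 4108 in A and 3657, 1232 and 1061 in B (-1.18 ± 0.41, adjusted p = 0.303). Of 8 pair-rule genes 7 were higher, with a median of 0.50 and 0 calls, and 2 had an unadjusted p under 0.05.

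Other regulators of the blastoderm did not pass in the control, 5 and 30 min pairs. The genome activator gene zld measured 3960, 3038 and 7259 in A and 7765, 6913 and 8902 in B (0.82 ± 0.25, adjusted p = 0.239). The mesoderm determinants twi (0.60 ± 0.22) and sna (0.25 ± 0.24), the pair-rule genes eve (-0.13 ± 0.37) and ftz (0.13 ± 0.30) and the cellularization genes Sry-alpha (-0.52 ± 0.43) and bnk (0.44 ± 0.68) lay between -0.52 and 0.60. The amnioserosa gene zen measured 1455, 3460 and 2673 in A and 2518, 850.4 and 296 in B (-1.47 ± 0.61, adjusted p = 0.389), with 30 min B the lowest of the 6 arrays. The gene sog was not analysed here.

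Metabolic and housekeeping lists differed in size. Glycolysis enzyme genes were lower in 8 of 10, with a median of -0.84 and 0 calls, and 4 had an unadjusted p under 0.05. The control pair carried most of this median, with -1.24 against -0.46 and -0.29 in the 5 and 30 min pairs, and without it the median was -0.25. Gapdh1 measured 7615, 4150 and 6452 in A and 2849, 1881 and 1512 in B (-1.55 ± 0.26, adjusted p = 0.0555), and Eno, the enolase gene, measured 8669, 4110 and 8047 in A and 3520, 2016 and 1717 in B (-1.52 ± 0.29, adjusted p = 0.075). Their A and B arrays did not overlap. Proteasome genes were higher in 16 of 25, with a median of 0.05, and replication genes in 14 of 19, with a median of 0.30, and neither list had a call; 1 and 5 had an unadjusted p under 0.05.

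The 30 min pair differed from the control and 5 min pairs in genes of older embryos. Late embryo muscle, nerve and cuticle genes had a median of 2.40 in the 30 min pair, with 24 of 27 higher in B, against -1.16 in the control pair and -1.03 in the 5 min pair. Their summed intensity was 10852, 13209 and 3141 in A and 4642, 6759 and 16577 in B. Of the 10 arrays 30 min A was the lowest and 30 min B the highest, with 90 min B, at 3241, next to the lowest. The projectin gene bt of muscle measured 1063, 791 and 272 in A and 272, 187 and 1228 in B, and the myosin light chain gene Mlc2 measured 393, 610.3 and 65.2 in A and 215, 277 and 834 in B. Hemocyte and basement membrane genes followed, with a median of 1.95 in the 30 min pair and -0.54 and -0.10 in the other 2. The collagen IV gene Col4a1 measured 613, 424 and 311 in A and 341, 428 and 1098 in B, while the hemocyte gene He stayed at or below 22.2 and Hml at or below 38.0 on all 10 arrays. Ovary and eggshell genes summed to 377 to 2343 and adult and larval genes to 175 to 484 on the 10 arrays. The part of older embryos in the differences of the other lists was not tested.

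**Figure D3:**
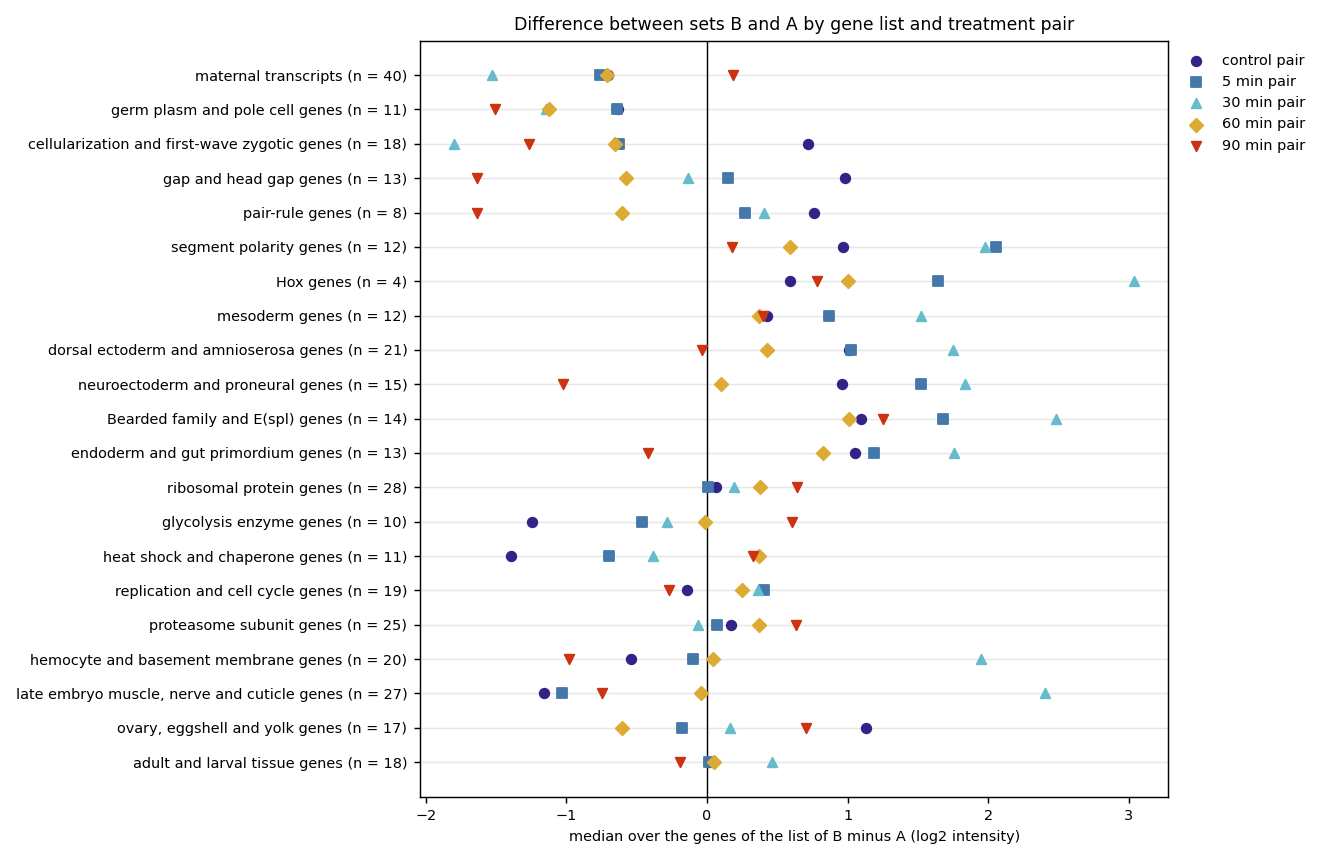
Median over the genes of each of 21 lists of the B minus A difference (log2 intensity), 1 symbol per treatment pair. Maternal, germ plasm and chaperone lists lie left of 0 in the control, 5 and 30 min pairs, the Bearded and E(spl) list lies right of 0 in all 5, and the late embryo list spans -1.16 to 2.40.

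In the 60 and 90 min pairs far more probe sets passed, and most of them were lower in B. Of 18769 probe sets 1055 passed (5.62%), 245 higher (1.31%) and 810 lower (4.32%), by the same test, with 3849 at an unadjusted p under 0.05. The median size was 0.98 among the higher and 2.37 among the lower probe sets. Of all 11982 genes with a single symbol 186 passed as higher and 650 as lower, the background for the list counts below. These calls rest on the 90 min pair: without it 0 passed in limma (1526 at an unadjusted p under 0.05), without the 60 min pair 1038 passed, and without the 5 min pair, which enters only the spread, 574. Without the intensity trend in limma's spread 0 passed, and 2781 had an unadjusted p under 0.05. The 90 min B array also stood apart from the other A and B arrays in some of its control probe sets. Its 3′ minus 5′ difference for ACTIN was 0.05 on the log2 scale, against 0.37 to 0.51 on the other 9 arrays, and that for Act5C was 1.73, against 1.29 to 1.67. Those for eIF-4a, 1.33, and for a GAPDH control, 3.09, lay within the range of the others. Another GAPDH control gave 1.20, the highest of the 10 arrays, against 0.54 to 1.10. The poly(A) spike-in controls of 90 min B averaged 3.67, against 2.38 to 3.16. The C arrays gave -0.17 to 0.37 for ACTIN and 1.44 to 1.94 for Act5C, ranges that hold 90 min B. For the other GAPDH control they gave 0.63 to 1.12, and for the poly(A) controls 2.38 to 3.33, both below 90 min B. The part of RNA quality in these calls was not tested.

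Patterning genes of the blastoderm were lower in these B arrays. Of 13 gap genes 10 were lower, with a median of -1.06, and 3 passed. The gap gene hb, whose protein patterns the anterior, measured 3704 and 4093 in A and 839 and 319 in B, for 60 and 90 min in turn (-2.91 ± 0.50, adjusted p = 0.0163). The gap gene Kr measured 2666 and 1967 in A and 1011 and 132 in B (-2.64 ± 0.51, adjusted p = 0.0216). The posterior homeobox gene cad measured 2962 and 4049 in A and 1101 and 1169 in B (-1.61 ± 0.37, adjusted p = 0.0348). For all 3 both B arrays were below both A arrays, and in hb and Kr 90 min B was by far the lower. With so few arrays such separation is a description only.

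All 8 pair-rule genes were below A, with a median of -1.30, and 2 passed. The homeobox gene ftz measured 1607 and 1185 in A and 664 and 259.8 in B (-1.73 ± 0.36, adjusted p = 0.0282). The bHLH repressor gene hry (hairy) measured 3086 and 2126 in A and 1344 and 688 in B (-1.41 ± 0.33, adjusted p = 0.0383). Segment polarity genes were split in the mean of both pairs, 6 of 12 higher with a median of -0.12. None passed the threshold, and 4 had an unadjusted p under 0.05. Taken singly, the pairs kept the direction of the control, 5 and 30 min pairs with smaller medians. In the 60 min pair 9 genes were higher, with a median of 0.59, and in the 90 min pair 7, with a median of 0.18. Here en measured 224 and 191 in A and 566 and 202 in B, so that 90 min B lay between the A arrays. Cellularization and first-wave genes were lower in 14 of 18, and 2 passed: Nin, a centrosomal protein gene (-1.99 ± 0.35), and the proneural gene sc (-2.74 ± 0.54), which the neuroectoderm list also holds.

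The maternal list was split, and the members that passed were all lower. Of 40 genes 23 were lower and 17 higher, with a median of -0.10, and 12 passed. They included the dorsoventral pathway genes spz, Tl, cact and tub, which encode the Toll ligand, its receptor, the inhibitor of Dorsal and an adaptor. The ligand gene spz measured 653 and 772 in A and 81.6 and 61.3 in B (-3.31 ± 0.43, adjusted p = 0.0109). The poly(A) polymerase gene wisp measured 4694 and 5895 in A and 875 and 351 in B (-3.24 ± 0.48, adjusted p = 0.0119). The RNA-binding protein gene stau measured 2898 and 2867 in A and 978 and 163 in B (-2.85 ± 0.49, adjusted p = 0.0164). In these genes 60 min B was below both A arrays and 90 min B lower again.

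The other maternal genes that passed were osk, otu, gcl, tor, twe and smg. The terminal receptor gene tor measured 1834 and 1986 in A and 389 and 259.6 in B (-2.58 ± 0.43). Smaug, the product of smg, directs the clearance of maternal RNA, and smg measured 9429 and 10650 in A and 5831 and 3824 in B (-1.09 ± 0.24). Both osk, at 2096 and 3349 in A and 639 and 605 in B (-2.09 ± 0.34, adjusted p = 0.013), and otu, at 767 and 1273 and 105 and 202 (-2.76 ± 0.58, adjusted p = 0.0282), had also passed in the control, 5 and 30 min pairs. Germ plasm genes were lower in 8 of 11, with a median of -1.49, and 4 passed: osk, gcl, tud (-2.48 ± 0.52) and spn-E (-1.73 ± 0.34). The last 2 encode helpers of the germline small RNA pathway.

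Another part of the maternal list was bright in 90 min B. There alphaTub67C measured 3546, against 330.3 and 624 in the A arrays and 237 in 60 min B. The anterior RNA factor exu measured 249 and 355 in A and 105 and 1069 in B. Neither passed in the mean of both pairs (adjusted p = 0.496 and 0.939). Outside the list, the oocyte thioredoxin gene dhd measured 2222 and 3895 in A and 2011 and 25595 in B and did not pass (adjusted p = 0.301). In the 90 min pair alone the median of the maternal list was 0.19, with 21 of 40 genes higher in B, and in the 60 min pair -0.71, with 8 higher.

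**Figure D4:**
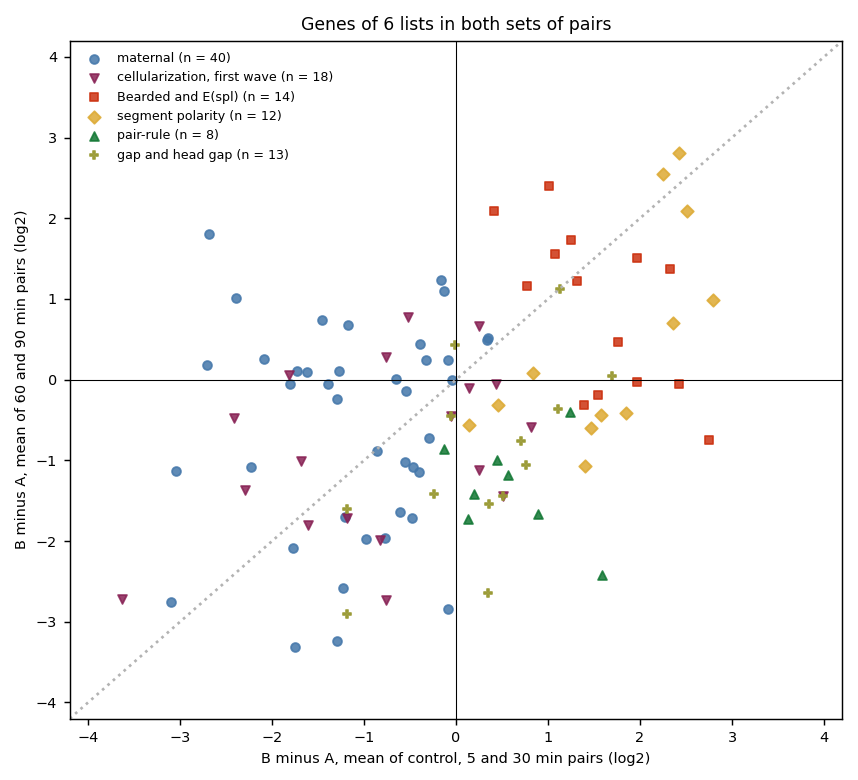
Each point is a gene of 1 of 6 lists, with the mean B minus A difference of the control, 5 and 30 min pairs on the x axis and that of the 60 and 90 min pairs on the y axis (log2); the dotted line marks equal differences. Pair-rule genes all lie below 0 on the y axis, 12 of 12 segment polarity genes lie right of 0 on the x axis, and maternal genes spread from -3.31 to 1.80 on the y axis.

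The 12 genes named for the largest decreases at 60 and 90 min included 4 cuticle protein genes, Vajk3, Lcp65Ag3, Cpr62Bc and Cpr49Ag. The cuticle is the chitin-based cover made late in embryogenesis. Vajk3, a cuticle protein gene, measured 504 and 706 in A and 3.64 and 3.51 in B (-7.03 ± 0.77, adjusted p = 0.0109), and -4.97 with a pseudocount of 16. The larval cuticle gene Lcp65Ag3 measured 2582 and 2746 in A and 182 and 14.0 in B (-5.67 ± 0.90, adjusted p = 0.0125). Cpr62Bc, of the chitin-binding cuticle family, measured 498 and 653 in A and 31.5 and 1.70 in B (-5.93 ± 1.06, adjusted p = 0.0177). The B values are near or at the background of the array. Of the other genes named by rule, Cpr49Ag is of the same family (-5.18 ± 0.90), Cht6 encodes a chitinase (-5.14) and Bicra a protein of a chromatin remodelling complex (-5.05 ± 0.77). CG17290, CG30458, CG8630, CG5326, CG18649 and CG10953 lay between -6.11 and -4.97.

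Cuticle protein genes taken by their symbols, a choice made after these values were seen, numbered 108, and 82 of them were lower in B at 60 and 90 min. Of these, 25 passed, with a median of -1.31 over the 108. In the control, 5 and 30 min pairs 67 of 108 were lower, with a median of -0.28 and 0 calls (14 at an unadjusted p under 0.05). Their summed intensity was 42604, 27944, 13145, 29309 and 35568 in the control, 5, 30, 60 and 90 min A arrays and 11197, 14502, 35219, 6117 and 3743 in the B arrays. In 4 of the 5 pairs the B sum was lower, and the 30 min pair went the other way. Genes of the late embryo list were lower in 19 of 27 at 60 and 90 min, with a median of -0.87, and 2 passed, Cpr62Bc and bt (-3.69 ± 0.87), where 650 of all 11982 genes passed as lower. The list's median was -0.75 in the 90 min pair and -0.04 in the 60 min pair. Of the mesoderm list, the muscle actin gene Act87E (1490 and 1567 in A, 353 and 118 in B, -2.90 ± 0.68) and zfh1, a factor of early mesoderm and heart (189.8 and 204 in A, 35.0 and 6.58 in B, -3.58 ± 0.72), passed as lower.

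**Figure D5:**
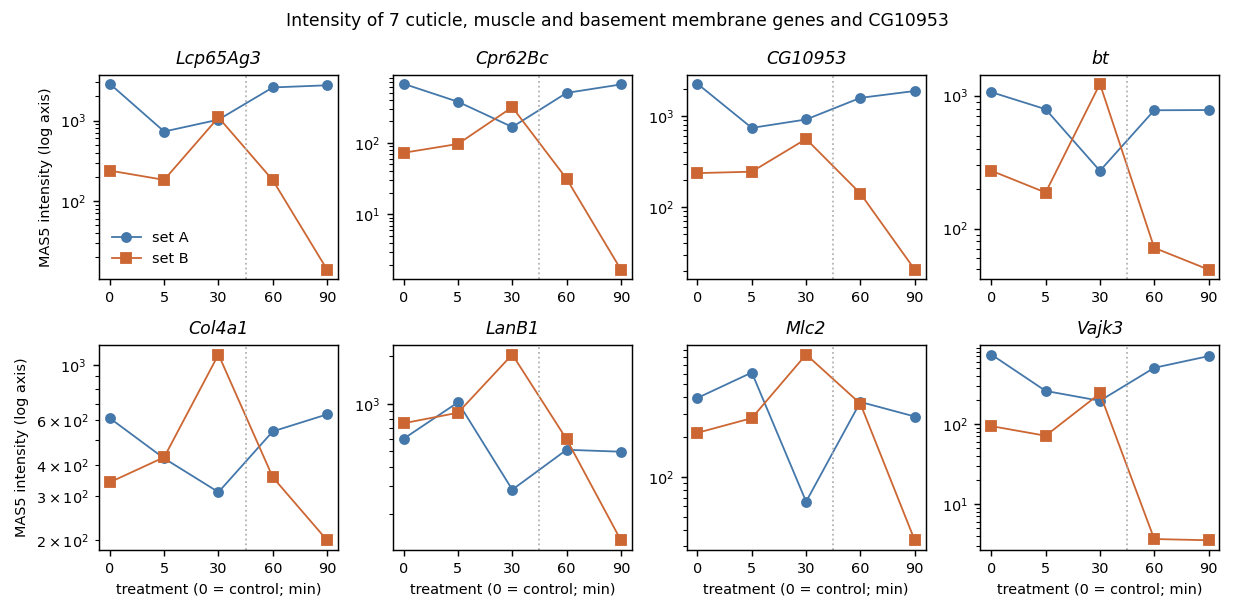
MAS5 intensity (log axes, which differ between panels) of 7 genes of the cuticle, muscle and basement membrane and of CG10953 on each array of set A (circles) and set B (squares) by treatment. The B arrays are below A at 60 and 90 min in Lcp65Ag3, Cpr62Bc and CG10953, while 30 min B is the brightest array for bt, Col4a1, LanB1 and Mlc2.

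Fewer genes were higher in B at 60 and 90 min, and by less. The Bearded family genes BobA (5917 and 4865 in A, 16018 and 19897 in B, 1.73 ± 0.25, adjusted p = 0.0109) and Tom (6698 and 5461 in A, 15666 and 12710 in B, 1.22 ± 0.21, adjusted p = 0.0156) passed again. Of their list of 14 genes 9 were higher and 5 lower at 60 and 90 min, with a median of 1.19, and 8 were higher in the 90 min pair. Dorsal ectoderm contributed Cyp310a1 (1.85 ± 0.38) and the peptidase gene Ance (1.49 ± 0.37), and the neuroectoderm mira (1.41 ± 0.24). The ecdysteroid synthesis gene phtm measured 333 and 341 in A and 1275 and 1731 in B (2.13 ± 0.41, adjusted p = 0.0217). PH4alphaEFB, a prolyl hydroxylase gene for collagen, measured 282 and 264 in A and 1073 and 2376 in B (2.54 ± 0.48, adjusted p = 0.0195). For CG9184, which had the largest difference among those that passed as higher, the values were 276 and 242 in A and 6838 and 10314 in B (5.02 ± 1.12, adjusted p = 0.0334). Its 5 min A array, at 2424, was brighter than the control and 5 min B arrays. The other named genes, sns, Obp18a, CG31075, CG5080, Cyp6d2, yellow-e3, CG13623, CG5885 and grnd, had differences up to 4.62, that of sns, and adjusted p under the threshold.

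Ribosomal protein genes, bright on every array, were higher in 25 of 28 at 60 and 90 min and 11 passed, with a median of 0.51. In the C arrays the median of this list was 0.51 to 0.73 above A. In the control, 5 and 30 min pairs all 28 were above A on average, with a median of 0.09 and 0 calls; 0 had an unadjusted p under 0.05. RpLP0 measured 27349 and 25346 in A and 36882 and 43813 in B (0.61 ± 0.14, adjusted p = 0.0351). After quantile normalization the median was 0.017 at 60 and 90 min and -0.0085 in the control, 5 and 30 min pairs. The size at 60 and 90 min and the direction in the control, 5 and 30 min pairs therefore depend on the scaling. Over the brightest of the 10 bins of all probe sets the median was 0.205 at 60 and 90 min and 0.077 in the control, 5 and 30 min pairs. Proteasome genes split, with Prosalpha5, Prosbeta5 and Prosbeta7 higher by 0.80 to 0.83 and Rpn5, a regulatory subunit (-2.43 ± 0.29), and Prosbeta3 (-1.17 ± 0.28) lower. Of the replication list 1 of 19 passed, RnrL, the large ribonucleotide reductase subunit (-1.26 ± 0.27), where 650 of all 11982 genes passed as lower.

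Most of the few probe sets called in the control, 5 and 30 min pairs were also called at 60 and 90 min, but not the reverse. Of the 22 called higher in the control, 5 and 30 min pairs, 14 were also called higher at 60 and 90 min, 63.6% of the first list and 5.71% of the second. Of the 17 called lower, 9 were called lower in both, 52.9% and 1.11%. Of all 18769 probe sets 1.31% were called higher and 4.32% lower at 60 and 90 min. Of the 245 called higher there, 238 were above A on average in the control, 5 and 30 min pairs. Of the 810 called lower, 721 were below A. Over all genes with a single symbol 6199 of 11982 were above A in those pairs. Both groups of pairs share an estimate of the spread, so their calls are not independent. The test of the difference between the groups of pairs called 0 probe sets (0.0%) in limma, although 2255 had an unadjusted p under 0.05. Without the 60 min pair it called 223, of which 219 were lower in B at 90 min relative to the other pairs. In that fit the 90 min pair has no replicate. The split was also chosen with these levels known, so these counts are descriptions.

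Named by the smallest p of that difference, Hsp26 was lower in B in the control, 5 and 30 min pairs and measured 876 and 1551 in A and 1510 and 10975 in B at 60 and 90 min, a change of 4.49 ± 0.59 (adjusted p = 0.18). The glycolysis gene Gapdh1 went from -1.55 ± 0.26 to 0.12 ± 0.32, a change of 1.67 ± 0.41, and dhd, CG31075, CG11674 and CG11267 had changes of 3.53 ± 0.83, 4.54 ± 1.14, 1.43 ± 0.35 and 1.83 ± 0.46. In the other direction rib went from 1.71 ± 0.21 to -0.10 ± 0.26, and Paip2, an inhibitor of the poly(A)-binding protein, from -0.82 ± 0.37 to -4.03 ± 0.45. Vajk3, bnb, aqz and DIP1 had changes of -5.53, -2.77 ± 0.40, -2.90 ± 0.45 and -3.45 ± 0.63. None passed, with adjusted p of 0.18 or more over all probe sets.

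Over all 5 pairs together, 123 probe sets passed (0.655%), 65 higher (0.346%) and 58 lower (0.309%), with 3268 at an unadjusted p under 0.05. All 123 lay on the same side in all 5 pairs, which selection by the mean of these pairs favours. Maternal genes accounted for 5 of the lower calls: osk, otu, Hsp27, gcl and spz. On the higher side were BobA, Tom and E(spl)m5-HLH, the ectoderm genes Ance, Ama and Cyp310a1, mira, and bowl, a zinc finger gene of the hindgut (1.61 ± 0.27). The mean differences of osk and Tom over the 5 pairs were -1.90 ± 0.23 and 1.27 ± 0.15. Without the 5 min or without the 60 min pair 0 probe sets passed, without the 30 min pair 8, without the 90 min pair 93, and without the control pair 559.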

How the data were processed

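The deposited values are probe set intensity on a linear scale, which the submitters' processing notes trace to MAS5. The sources used here give no MAS5 version. RNA was copied from an oligo(dT) primer, per the labels' protocols. Each of the 10 arrays had a trimmed mean (2% removed from each end) of 500.01 to 500.02, and this scaling was kept. Scanner files and detection calls were not used here. MAS5 values near the background are noisy, and the number of arrays limits the precision.

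Values were taken as log2(intensity + 1), so fold changes of dim probe sets are understated. After 183 control probe sets were left out, 18769 were tested. Of these, 13647 had 1 gene symbol, 402 several and 4720 none in the platform annotation; 13544 symbols were looked up in the RefSeq table of assembly Release 6, and 0 changed. No coordinates are given because the files name no genome build.

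A model with treatment as a block and a B minus A term for each group of pairs (3 residual degrees of freedom) was fitted in R 4.3.3 with limma 3.58.1, whose prior spread followed the intensity; a second had a single term over 5 pairs. All p-values are two-sided, adjusted by Benjamini-Hochberg over 18769 probe sets with a threshold of 0.05. On simulated data for the control, 5 and 30 min pairs (18769 probe sets, 3 runs), 200 changes of each size were planted per run. The fit recovered 43.5% of changes of 2 and 96.3% of changes of 4 on the log2 scale, with a mean of 19.7 false calls. The simulated noise was independent between probe sets, unlike the shared differences of the real arrays. The 19.7 is therefore no estimate of the false calls among the real ones.

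For each gene the probe set with the highest mean was used. The 21 lists matched 356 of 506 entries and carry no test. Members and lists were chosen with earlier results of these data known. Named genes are the 12 per direction and group of pairs with the largest called difference among brighter probe sets (at or above the 40th percentile), the smallest p in each list, 25 genes in any case and the 6 per direction with the smallest p for the difference between groups of pairs; list members not named are given by counts. Alternatives were the pseudocount, a filter on dim probe sets, quantile or median scaling, no trend, no treatment block, all 15 arrays sharing the spread, all probe sets of a gene and leaving out each pair. A planned count of a promoter motif was not run.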

Additional observations from a re-analysis of the deposited data

Results flagged for a closer look

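Pair-rule and chaperone genes lay on opposite sides of 0 in the 2 groups of pairs. The median of the pair-rule genes was above 0 in the control, 5 and 30 min pairs (0.76, 0.27 and 0.40) and below 0 in the 60 and 90 min pairs (-0.61 and -1.63), a change of -1.60 between the means of the pair medians. For the heat shock and chaperone genes the 3 medians were -1.39, -0.70 and -0.39 and the other 2 were 0.37 and 0.33, a change of 1.18. The difference between the groups of pairs was not tested for either list. Dixon's test of 27 groups of 5 values (the pair medians of 21 lists, and 3 array-wide measures in each set) found 0 with a value far from the others.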

How the results depend on the processing

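No paired analysis was possible with the replicate letter as the block, because the letter is what was compared; the pairs used here were formed by treatment. Without that treatment block 2 probe sets passed in the control, 5 and 30 min pairs, 1239 in the 60 and 90 min pairs and 560 over all 5 pairs. In the control, 5 and 30 min pairs, where 39 passed, the count was 9 among the brighter probe sets, 0 with a pseudocount of 16, 174 after quantile normalization (116 higher, 58 lower), 152 with arrays centred on their median (58 higher, 94 lower), 0 without the intensity trend, 272 with all 15 arrays sharing the spread, and 0 to 198 with 1 pair left out. In the 60 and 90 min pairs it was 0 without the trend, 2004 with 15 arrays, 968 with median centring (113 higher, 855 lower) and 0 to 1390 with 1 pair left out, against 1055. Over all 5 pairs it was 295 after quantile normalization, 221 with median centring (78 higher, 143 lower), 4 without the trend, 1216 with 15 arrays and 0 to 559 with 1 pair left out, against 123. The difference between the groups of pairs gave 3 calls with median centring and 0 to 223 with 1 pair left out, against 0.

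Of the 21 list medians, 6 in the control, 5 and 30 min pairs and 10 in the 60 and 90 min pairs took the other sign under at least 1 alternative, including the late embryo and hemocyte lists. The maternal median at 60 and 90 min was -0.10 and that of segment polarity -0.12. With 1 pair left out, the medians ranged as follows in the control, 5 and 30 min and then in the 60 and 90 min pairs: maternal -1.18 to -0.63 and -0.71 to 0.19, germ plasm -0.66 to -0.33 and -1.51 to -1.13, segment polarity 1.51 to 2.27 and 0.18 to 0.59, Bearded and E(spl) 1.31 to 1.78 and 1.01 to 1.25, ribosomal 0.04 to 0.13 and 0.38 to 0.64. Quantile normalization gave -0.0085 and 0.0166 for the ribosomal medians and -1.19 for germ plasm at 60 and 90 min. The medians of the late embryo and hemocyte lists in the control, 5 and 30 min pairs turned from 0.11 and 0.47 to -1.03 and -0.35 without the 30 min pair. For single named genes, 1739 repeats kept their direction and side of the threshold, 342 lost the call, 98 gained it, 22 changed sign without being called and 0 reversed while called. Causes of these changes were not tested. Dim probe sets, such as cuticle genes in 90 min B, are limited by the background, so the size of their differences depends on the pseudocount.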

Other observations

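Control A and 90 min B, arrays of different sets and treatments, shared the highest values of a group of genes. They were the 2 brightest of the 10 arrays for 757 of 11982 genes (6.32%) and for 696 of the 8640 brighter genes (8.06%). Of the glycolysis list 6 of 10 genes had this pattern (60.0%), of the maternal list 12 of 40 (30.0%), and of the chaperone list 3 of 11 (27.3%). Most other lists had 0 such genes, including 0 of 27 late embryo and 0 of 28 ribosomal protein genes. In lists of this size 0 is not far from the share over all genes. The pattern was noticed in these values and carries no test.

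Single genes differed widely between these arrays and the others. The triose phosphate isomerase gene Tpi measured 4042 in control A and 5901 in 90 min B, and between 427 and 847 on the other 8 arrays. The glutathione transferase gene GstD1 measured 5700 and 10167 on these arrays and 574 to 1304 on the others. The maternal alpha-tubulin gene alphaTub67C measured 3482 and 3546, against 107 to 811 elsewhere. In the list of ovary, eggshell and yolk genes 1 of 17 had the pattern (5.88%), the yolk receptor gene yl, with 2074 and 1828, against 57.6 to 586 elsewhere. The meiotic cyclosome activator gene cort measured 264 and 479, against 39.5 to 109 elsewhere.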
